A study of Mus musculus with 18 samples.

Results

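Somatic hypermutation of VH186.2 was compared between mice homozygous for nuclease-dead EXO1 (Exo1DA/DA) and wild-type mice (Exo1+/+), which make up 15 of the 18 mice of the series, 8 Exo1DA/DA and 7 Exo1+/+. The members were taken from the mutation lists of these 2 genotypes, each mouse being 1 dataset number in its list. Exo1DA/DA mice carry a knock-in D173A mutation, made by genome editing in C57BL/6J zygotes, in both copies of Exo1 in the germline, which replaces a residue of the nuclease active site. Exo1+/+ mice carry the unaltered gene. The lists hold no sequence of Exo1, so the genotype could not be checked in them. All 15 mice are given the strain C57BL/6, were age-matched, and received a single intraperitoneal injection of the hapten protein conjugate NP(33)-CGG on alum (200 µg in the protocol). Total RNA of the spleen was taken on day 10, copied to cDNA, and the VH186.2 segment (IGHV1-72*01, gene Ighv1-72) was amplified by nested PCR and sequenced. Nothing ties a dataset number to a labelled animal other than its genotype, so mice are named here by dataset number, 284 to 290 for Exo1+/+ and 296 to 303 for Exo1DA/DA, and p-values measure the spread between these libraries.

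During the germinal center reaction, activation-induced deaminase (AID) converts cytosine to uracil in the antibody variable region, preferentially in WRC motifs and their complement GYW (W is A or T, R is A or G, Y is C or T). Replication over the uracil gives C-to-T and G-to-A transitions, and removal of the uracil by UNG allows other changes at G:C pairs. Alternatively, EXO1, an exonuclease, resects the DNA strand that holds the lesion, and the gap is filled by error-prone polymerase η, which introduces mutations at A:T pairs, mainly in WA motifs and their complement TW. VH186.2 is the heavy chain segment that dominates the response of C57BL/6 mice to NP, and a change of tryptophan to leucine at codon 33 raises the affinity for the hapten.

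The stretch compared covers nucleotides 30 to 285, counted from the first nucleotide of VH186.2. It is printed as rebuilt from the germline bases in the lists, 5′ to 3′, because every motif, codon and position below refers to it, with CDR1 (nucleotides 76 to 99, codons 26 to 33) and CDR2 (nucleotides 151 to 174, codons 51 to 58) in capitals.
VH186.2, nucleotides 30 to 285: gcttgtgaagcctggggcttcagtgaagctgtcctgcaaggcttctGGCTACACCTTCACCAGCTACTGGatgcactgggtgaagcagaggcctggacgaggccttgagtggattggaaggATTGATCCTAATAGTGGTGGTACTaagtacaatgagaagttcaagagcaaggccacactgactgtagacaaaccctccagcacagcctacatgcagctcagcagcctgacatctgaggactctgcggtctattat
The stretch holds 65 A, 62 C, 72 G and 57 T. Of its G:C sites, 22 lie in WGCW (the motif in which WRC and GYW overlap on both strands), 10 in WRC alone, 7 in GYW alone and 95 outside these motifs. Of its A:T sites, 24 lie in WA, 21 in TW and 77 outside both. The motif given in the lists matched the printed sequence at 256 of 256 positions.

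The lists hold clones with at least 1 mutation, as averages over 1000 random draws of 1 sequence per clone. Exo1+/+ mice had 37.0 to 323.9 mutated clones (median 108.7) and Exo1DA/DA mice 21.0 to 167.8 (median 63.2). Clones with similar sets of mutations were frequent within mice. Joined by this similarity into groups, called lineages here although descent was not tested, and with each group counted as at most 1 clone, they numbered 25.5 to 188.7 in Exo1+/+ and 3.00 to 47.7 in Exo1DA/DA mice. In mouse 301 the 108.0 clones formed 3.00 lineages, and in mouse 300 the 21.0 clones formed 5.21. Sequences of at least 6 mutations that were nearly the same in different mice made up 2.70 to 39.3% of the clones of Exo1+/+ mice (median 11.6%) and 1.75 to 76.1% of those of Exo1DA/DA mice (median 24.3%). The share was 76.1% in mouse 301, 62.6% in mouse 296, 55.6% in mouse 302 and 42.5% in mouse 300. The sharing ran across the genotypes compared. All shared clones of mice 296, 301, 302 and 300 had a match in an Exo1+/+ mouse, and 31.5% of the clones of Exo1+/+ mouse 289 and 31.1% of those of mouse 288 had one in an Exo1DA/DA mouse. Whether these sequences were carried from one library to another or arose in separate mice cannot be told apart here. The main results are also given with all shared sequences removed.

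The genotypes were compared in 74 measures, with the mouse as the unit, by a 2-sided exact permutation test over all 6435 divisions of the 15 mice. The smallest p this design can give is 0.000155, and p-values were adjusted over all 74 comparisons by the Benjamini-Hochberg method. Without adjustment 24 comparisons (32.4%) passed p of 0.05, of which 10 (13.5%) were higher and 14 (18.9%) lower in Exo1DA/DA mice. One comparison (1.35%) passed after adjustment, the share of mutations at A. Many of the 74 measures overlap, since shares of one mouse add up to a whole. With the sequences shared between mice removed, 22 comparisons (29.7%) passed after adjustment, 9 of them higher and 13 lower in Exo1DA/DA mice, and 34 (45.9%) passed without it. This removal could act only on sequences of 6 or more mutations and left 36.0 to 265.5 clones in Exo1+/+ and 12.1 to 66.5 in Exo1DA/DA mice, with 12.1 in mouse 300 and 25.9 in mouse 301. It also changed the load unevenly in both genotypes. The mutations per clone fell to 1.5 from 4.25 in mouse 288, to 2.47 from 4.71 in mouse 289, to 3.79 from 7.57 in mouse 296 and to 3.94 from 6.75 in mouse 302, and were 7.69 in place of 6.21 in mouse 300.

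Mutations at A made up a lower share of all mutations in Exo1DA/DA mice. In Exo1+/+ mice 284 to 290 the share was 18.3, 21.0, 39.3, 39.4, 10.4, 5.68 and 9.04%. In Exo1DA/DA mice 296 to 303 it was 4.88, 1.99, 4.50, 6.73, 3.37, 1.32, 8.97 and 3.51%. The groups overlapped in a narrow range, with 6 of 7 Exo1+/+ mice above the highest Exo1DA/DA mouse and 6 of 8 Exo1DA/DA mice below the lowest Exo1+/+ mouse. The mean fell from 20.4% ± 14.0 (SD, n = 7) to 4.41% ± 2.5 (SD, n = 8; exact permutation p = 0.000622, adjusted p = 0.0460). Leaving out each mouse in turn gave p of 0.000333 to 0.00233, and the adjusted p ranged from 0.0246 to 0.172, below 0.05 without mouse 284, 286, 289 or 290 and above it without any other mouse. With each lineage counted as 1 clone the means were 16.9% and 6.11% (exact permutation p = 0.00435, adjusted p = 0.101), and with each sequence counted 1 time, whatever its weight, 27.4% and 11.6% (exact permutation p = 0.0196, adjusted p = 0.251). When each distinct change of a mouse was counted 1 time, rare ones included, the means were 31.1% and 29.7% (exact permutation p = 0.0932). Without the shared sequences the means were 23.7% and 4.81% (exact permutation p = 0.000622, adjusted p = 0.0153).

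No difference at the other bases passed p of 0.05 in the full lists, but those at T and C did without the shared sequences. Mutations at T made up 6.49% ± 3.93 in Exo1+/+ and 5.68% ± 6.01 in Exo1DA/DA mice (SD, n = 7 and 8; exact permutation p = 0.773). Mouse 301 stood apart, with 19.2% of its mutations at T. Without the shared sequences mouse 301 had no mutation at T left and the means were 8.41% and 3.64% (exact permutation p = 0.0145, adjusted p = 0.0486). Mutations at C made up 23.0% ± 9.28 and 32.8% ± 12.1 (exact permutation p = 0.104, n = 7 and 8), with 5 of the 8 Exo1DA/DA mice above the highest Exo1+/+ mouse (36.1%) and the lowest Exo1DA/DA mouse at 13.1%. With the shared sequences taken out the means at C were 21.3% and 35.2% (exact permutation p = 0.0301, adjusted p = 0.0826, n = 7 and 8). Mutations at G made up 50.1% ± 11.5 and 57.1% ± 15.9 (exact permutation p = 0.347, n = 7 and 8). The load did not separate the genotypes either, at 4.84 ± 1.19 mutations per mutated clone in Exo1+/+ and 5.52 ± 1.43 in Exo1DA/DA mice (SD, n = 7 and 8; exact permutation p = 0.338).

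**Figure D1:**
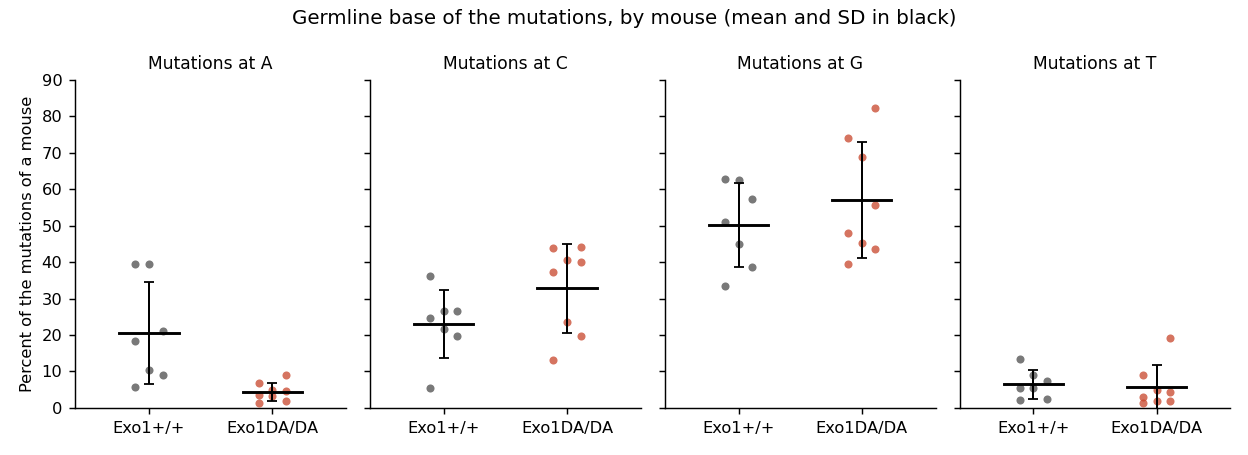
Share of mutations at A, C, G and T (percent of all mutations at nucleotides 30 to 285) in each mouse, with mean and SD, 7 Exo1+/+ and 8 Exo1DA/DA mice. At A, 6 of 7 Exo1+/+ mice lie above the highest Exo1DA/DA mouse (8.97%), and at C, 5 of 8 Exo1DA/DA mice lie above the highest Exo1+/+ mouse (36.1%).

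Counted by clones rather than by mutations, the genotypes overlapped more. Clones with at least 1 change at an A site made up 44.3% ± 23.4 of the mutated clones of Exo1+/+ mice (lowest 20.2%, median 32.3%, highest 75.3%) and 20.3% ± 11.8 of those of Exo1DA/DA mice (5.15%, 19.9% and 33.7%), and 3 of 7 Exo1+/+ mice lay above the highest Exo1DA/DA mouse. For T sites the means were 26.2% and 25.8%, for C sites 47.7% and 67.2%, and for G sites 77.5% and 89.5%. Fewer A sites also reached a mean of 1% of clones. A change was present in at least 1% of clones, as the mean over mice, at 28 of 65 A sites in Exo1+/+ mice and at 7 in Exo1DA/DA mice. Being a mean, this level could be reached through 1 mouse. The A-to-G change at nucleotide 281, for example, had a mean of 6.81% in Exo1+/+ mice and of 0.721% without mouse 286. For the other bases these numbers were close to each other, 26 and 29 of 62 C sites, 29 and 29 of 72 G sites, and 6 and 7 of 57 T sites. Neither the shares of clones nor the counts of sites were tested.

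**Figure D2:**
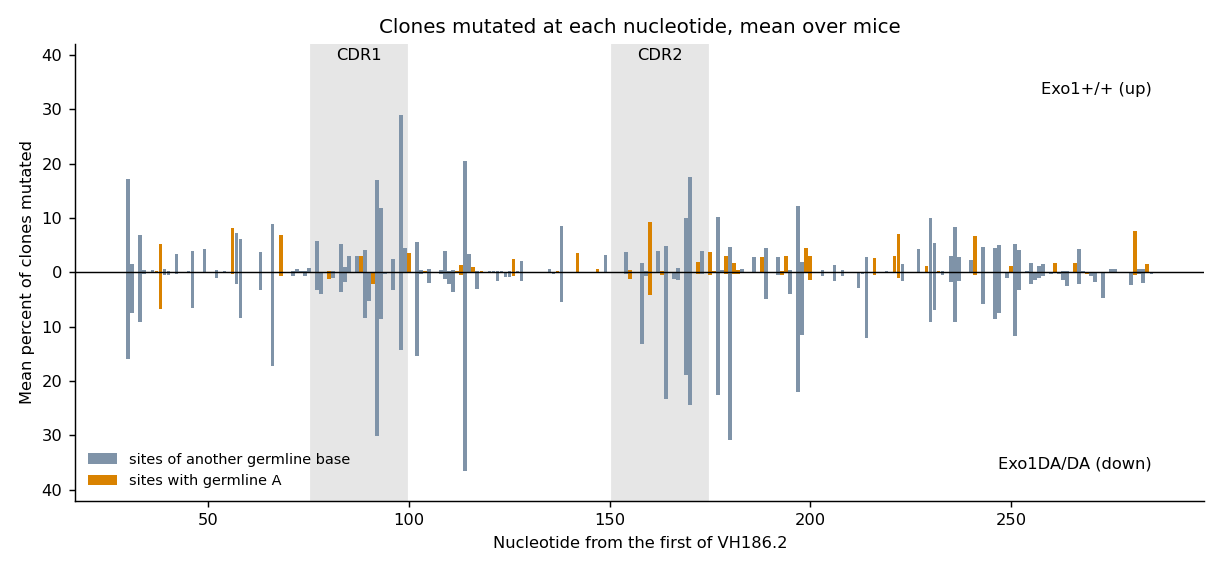
Percent of mutated clones with a change at each position of VH186.2 (nucleotide number on the horizontal axis), as mean over mice, Exo1+/+ upward and Exo1DA/DA downward, with A sites in orange and CDR1 and CDR2 marked. The mean reached 1% of clones at 28 A sites in Exo1+/+ mice and at 7 in Exo1DA/DA mice, a level that 1 mouse can bring about.

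Of the 12 substitution types, 6 differed at unadjusted p below 0.05 in their frequency, given here per 1000 sites of the germline base in the mutated clones, and none passed the adjustment. All 3 changes of A were lower in Exo1DA/DA mice. A-to-G, the change most typical of polymerase η, had a frequency of 4.03, 12.6, 19.1, 29.7, 4.12, 2.62 and 0.783 in the Exo1+/+ mice and of 3.61, 0.484, 2.32, 3.30, 0.411, 0.270, 5.26 and 2.85 in the Exo1DA/DA mice. Mice 285, 286 and 287 thus stood above all Exo1DA/DA mice, and mouse 290 lay among the lower ones. The means were 10.4 ± 10.7 and 2.31 ± 1.80 (SD, n = 7 and 8; exact permutation p = 0.0274, adjusted p = 0.136), and the difference was lost in 8 of the 15 fits that left out 1 mouse.

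A-to-C was 4.63-fold lower in Exo1DA/DA mice, and stayed below p of 0.05 whichever mouse was left out. The means were 2.15 ± 1.45 and 0.464 ± 0.498 per 1000 A sites (SD, n = 7 and 8; exact permutation p = 0.00886, adjusted p = 0.120). A-to-T was at 3.94 ± 3.44 and 1.17 ± 1.17 (exact permutation p = 0.0469, n = 7 and 8) and no longer passed in 10 of the 15 fits that left out 1 mouse. As shares of all mutations, which remove differences in load, A-to-G fell from 12.6% ± 11.3 to 2.60% ± 1.82 (p = 0.00793), A-to-C from 2.83% to 0.560% (p = 0.00591) and A-to-T from 5.06% to 1.25% (p = 0.0113, all exact permutation tests with n = 7 and 8, adjusted p = 0.120). None of these 3 shares was lost when any 1 mouse was left out, and without the shared sequences their adjusted p-values were 0.0312, 0.0287 and 0.0448 (exact permutation tests, n = 7 and 8). The frequency of A-to-C was then 1.93 and 0.334 (adjusted p = 0.0448), that of A-to-G 9.39 and 1.97 (p = 0.0210, adjusted p = 0.0621) and that of A-to-T 3.97 and 1.14 (p = 0.0769, exact permutation tests, n = 7 and 8). The shares depended on how sequences were weighted. With each sequence counted 1 time, A-to-G was at 18.0% and 6.46% (p = 0.0113), A-to-C at 3.46% and 2.48% (p = 0.221) and A-to-T at 5.94% and 2.68% (p = 0.223, exact permutation tests, n = 7 and 8). With each distinct change of a mouse counted 1 time none of the 3 passed, and A-to-T turned its direction, with 7.88% and 8.83%.

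At G:C pairs the transitions were more frequent and C-to-G was less frequent in Exo1DA/DA mice. C-to-T, the direct product of AID on the coding strand, had a frequency of 4.01, 15.3, 11.7, 17.6, 22.8, 15.8 and 7.10 per 1000 C sites in the Exo1+/+ mice. In the Exo1DA/DA mice it was 26, 18.0, 14.3, 27.3, 12.7, 31.7, 45.8 and 41.1, with 5 of the 8 above every Exo1+/+ mouse. The means were 13.5 ± 6.39 and 27.1 ± 12.1, a 2.01-fold difference (SD, n = 7 and 8; exact permutation p = 0.0191, adjusted p = 0.136).

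G-to-A, its counterpart on the other strand, was 1.72-fold higher, at 20.0 ± 6.82 and 34.4 ± 14.9 per 1000 G sites (SD, n = 7 and 8; exact permutation p = 0.0334, adjusted p = 0.142), but was lost in 8 of the 15 fits without 1 mouse. C-to-G, a transversion that needs more than replication over the uracil, was at 3.77 ± 2.88 and 1.27 ± 1.07 per 1000 C sites (exact permutation p = 0.0379, n = 7 and 8) and was lost in 10 of them. G-to-C had means of 5.92 ± 2.42 and 3.06 ± 2.66 per 1000 G sites (exact permutation p = 0.0528, n = 7 and 8). The other 5 types gave exact permutation p-values of 0.242 to 0.944, among them G-to-T with 7.03 and 6.76 per 1000 G sites (p = 0.93, n = 7 and 8). Once the shared sequences were removed, C-to-T (8.05 and 24.3, adjusted p = 0.0197) and G-to-A (11.7 and 30.2, adjusted p = 0.0312, exact permutation tests, n = 7 and 8) passed the adjustment as well. G-to-C (5.21 and 1.67, p = 0.0205), C-to-G (3.07 and 1.00, p = 0.0294) and T-to-C (1.71 and 0.563, p = 0.0392) were then below p of 0.05 without adjustment (exact permutation tests, n = 7 and 8). With each lineage counted as 1 clone, C-to-T was at 8.85 and 16.4 (p = 0.0702) and G-to-A at 11.3 and 19.9 (p = 0.0945), and with each sequence counted 1 time p was 0.189 and 0.223 (exact permutation tests, n = 7 and 8).

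**Figure D3:**
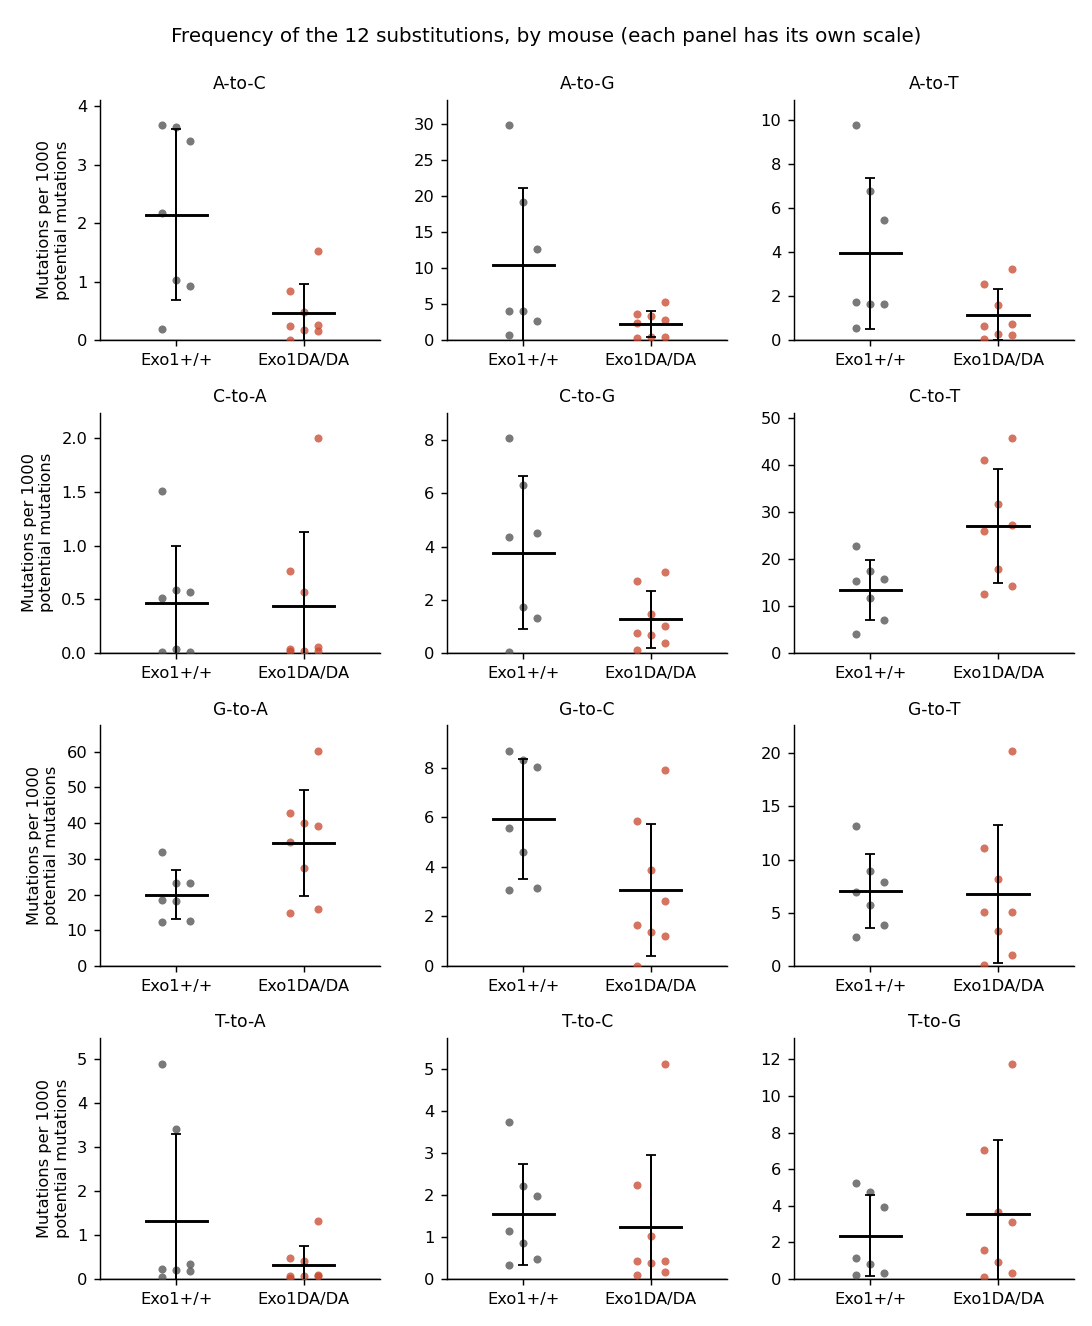
Frequency of the 12 substitution types per 1000 sites of the germline base in each mouse, with mean and SD, 1 panel per type with its own scale from 0. Mean A-to-C is 4.63-fold lower and mean C-to-T 2.01-fold higher in the 8 Exo1DA/DA than in the 7 Exo1+/+ mice.

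The balance of transitions and transversions at each base was examined next, since it does not depend on how often a base was mutated. At C, transitions made up 97.9, 64.0, 78.3, 77.5, 92.2, 78.3 and 52.9% of the mutations in the Exo1+/+ mice and 90.5, 96.2, 99.1, 88.3, 96.6, 97.6, 95.3 and 93.1% in the Exo1DA/DA mice. All Exo1DA/DA mice and Exo1+/+ mice 284 and 288 thus lay at or above 88.3%, while the other 5 Exo1+/+ mice lay at or below 78.3%. The means were 77.3% ± 15.4 and 94.6% ± 3.68 (SD, n = 7 and 8; exact permutation p = 0.00544, adjusted p = 0.120), and p stayed below 0.05 whichever mouse was left out. The difference depended on how sequences were weighted. With each sequence counted 1 time the means were 67.1% and 81.1% (p = 0.0838), and with each distinct change of a mouse counted 1 time the direction turned, with 62.3% and 53.7% (p = 0.0990, exact permutation tests, n = 7 and 8). With the shared sequences removed the means were 72.3% and 94.8% (exact permutation p = 0.00155, adjusted p = 0.0197, n = 7 and 8).

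At G the transition share was 60.6% ± 13.4 and 77.9% ± 16.4 (exact permutation p = 0.0486, n = 7 and 8), a difference lost in 10 of the 15 fits without 1 mouse. In the lists without shared sequences it was 51.8% and 79.0% (exact permutation p = 0.00171, adjusted p = 0.0197, n = 7 and 8). Taken over both bases, it was higher inside the AID motifs, with 69.4% ± 13.6 and 84.6% ± 9.99 (p = 0.0216), and outside them, with 58.1% ± 21.8 and 81.5% ± 14.2 (p = 0.0250, both exact permutation tests, n = 7 and 8). The difference inside was lost without mouse 290 and that outside without mouse 284. After removal of the shared sequences these shares were 64.1% and 88.3% inside (adjusted p = 0.0115) and 46.4% and 78.4% outside (adjusted p = 0.0314, exact permutation tests, n = 7 and 8). With each distinct change counted 1 time all 3 of these differences turned their direction. At A:T pairs no such change was found. Transitions made up 55.0% ± 22.0 and 54.5% ± 24.2 of the mutations at A (p = 0.970) and 37.4% and 29.6% of those at T (p = 0.637, exact permutation tests, n = 7 and 8). Mutations at A thus held a lower share in Exo1DA/DA mice, while the mean share of A-to-G among them was close to that of Exo1+/+ mice.

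The strand of the mutated base gave no difference that passed. A made up 70.8% ± 18.0 of the mutations at A:T pairs in Exo1+/+ mice and 51.5% ± 25.8 in Exo1DA/DA mice (exact permutation p = 0.120, n = 7 and 8). G made up 68.6% and 63.0% of those at G:C pairs (exact permutation p = 0.421, n = 7 and 8).

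**Figure D4:**
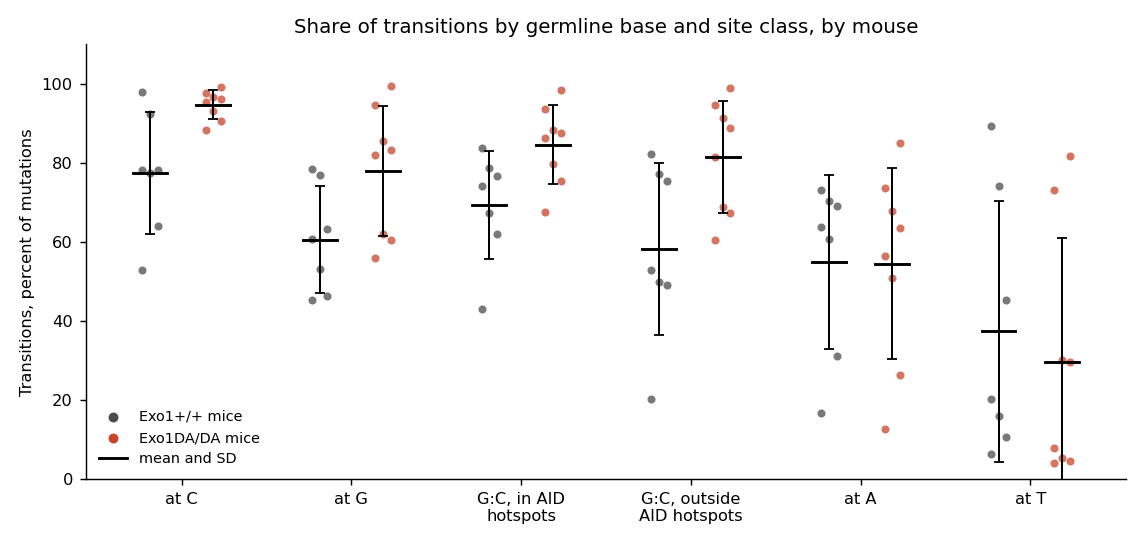
Transitions as percent of the mutations at each base, and at G:C pairs inside and outside the AID motifs, in each mouse, with mean and SD. At C the 8 Exo1DA/DA mice lie between 88.3 and 99.1% and the 7 Exo1+/+ mice between 52.9 and 97.9%; at A the means are 54.5% and 55.0%.

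Among the motifs, WA and the A:T sites outside motifs carried a smaller part of the mutations in Exo1DA/DA mice. WA sites held 7.80, 12.9, 29.2, 29.3, 7.35, 3.76 and 2.70% of all mutations in the Exo1+/+ mice and 4.34, 0.683, 1.91, 6.20, 0.416, 0.972, 8.09 and 2.46% in the Exo1DA/DA mice. Exo1+/+ mice 285, 286 and 287 lay above all Exo1DA/DA mice, and the other 4 lay within their range. The means were 13.3% ± 11.4 and 3.13% ± 2.81 (SD, n = 7 and 8; exact permutation p = 0.0103, adjusted p = 0.120), and p stayed below 0.05 without any 1 mouse. This share was 14.8% and 3.46% with the shared sequences removed (exact permutation p = 0.0104, adjusted p = 0.0448, n = 7 and 8). As a frequency WA had 9.91 ± 10.0 and 2.61 ± 2.59 mutations per 1000 possible changes (exact permutation p = 0.0404, n = 7 and 8). This difference was lost in 10 of the 15 fits without 1 mouse.

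A:T sites outside both motifs held 11.7% ± 5.06 and 5.74% ± 3.49 of the mutations (exact permutation p = 0.0199, adjusted p = 0.136, n = 7 and 8). Without the shared sequences this share was 15.1% ± 3.09 and 4.52% ± 2.88 (exact permutation p = 0.000311, adjusted p = 0.0115, n = 7 and 8), the Exo1+/+ mice lying at 11.6 to 19.6% and the Exo1DA/DA mice at 0 to 9.78%. TW, the same motif read on the other strand, was rarely mutated in both genotypes, with 1.59 and 0.988 mutations per 1000 possible changes (exact permutation p = 0.567, n = 7 and 8). Mouse 301 was at 5.55 and the other Exo1DA/DA mice at 0.0412 to 1.21. The share of TW among the mutations was 1.92% and 1.22% (p = 0.609), and 2.25% and 0.486% with the shared sequences removed (p = 0.0365, adjusted p = 0.0901, exact permutation tests, n = 7 and 8).

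The AID motifs had higher mean frequencies in Exo1DA/DA mice, but none passed p of 0.05. WGCW had 23.2 ± 8.20 and 34.6 ± 15.3 mutations per 1000 possible changes (p = 0.103), WRC 8.74 and 16.3 (p = 0.0999) and GYW 21.4 and 35.2 (p = 0.156, all exact permutation tests, n = 7 and 8). On removal of the shared sequences the p-values of WGCW (14.7 and 29.6) and WRC (6.01 and 14.8) were 0.0204 and 0.0486 before and 0.0621 and 0.106 after adjustment (exact permutation tests, n = 7 and 8). G:C sites outside the motifs held 26.4% and 26.9% of all mutations (exact permutation p = 0.925, n = 7 and 8).

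Replacement and silent changes were separated by region, since frameworks keep the fold of the antibody and CDRs contact the antigen. In FR3 (codons 59 to 95), changes that replaced an amino acid or gave a stop made up 82.1, 62.9, 59.8, 77.0, 63.0, 64.7 and 92.1% of the mutations in the Exo1+/+ mice and 62.3, 63.0, 54.7, 27.7, 73.6, 16.9, 62.6 and 39.4% in the Exo1DA/DA mice. Mice 301, 299 and 303 gave the lowest of these values. The means were 71.7% ± 12.2 and 50.0% ± 19.9 (SD, n = 7 and 8; exact permutation p = 0.0263, adjusted p = 0.136), against 79.0% of all changes possible in FR3. Leaving out mouse 284 or mouse 290 lost the difference. Without the shared sequences the means were 75.2% and 45.0% (exact permutation p = 0.00186, adjusted p = 0.0197, n = 7 and 8), with 0.00419% in mouse 301.

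Silent changes of FR3 had 7.53 ± 4.42 and 15.6 ± 9.07 mutations per 1000 possible changes (exact permutation p = 0.0378, n = 7 and 8). Replacement changes of FR3 had 4.78 and 3.99 (exact permutation p = 0.555, n = 7 and 8). Among the silent changes of FR3, C180T, G177A and C198T had the largest differences of means, and C180T and G177A were both at 98.1% in mouse 301. Over all frameworks, silent changes were at 9.02 ± 2.54 and 13.9 ± 5.39 per 1000 (exact permutation p = 0.0385, n = 7 and 8). The silent differences in FR3 and in all frameworks were lost in 8 and 9 of the 15 fits without 1 mouse, in both cases also in the fit without mouse 301. With the shared sequences removed they were 5.26 and 13.1 in FR3 (adjusted p = 0.0901) and 6.47 and 12.6 in all frameworks (adjusted p = 0.0471, exact permutation tests, n = 7 and 8).

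The region depends on the borders used. With CDR borders of Kabat, CDR2 runs from codon 50 to codon 66 and takes in these 3 positions. FR3 then had replacement shares of 72.3% and 71.9% (exact permutation p = 0.950, n = 7 and 8), and CDR2 had 83.0% and 61.3% (exact permutation p = 0.0463, n = 7 and 8). Silent changes in the Kabat CDR2 had 6.77 and 27.6 mutations per 1000 possible changes (exact permutation p = 0.00917, n = 7 and 8).

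In the other regions the replacement share gave no difference that passed. It was 49.3% and 47.9% in FR1, 86.0% and 79.4% in CDR1, 54.0% and 48.6% in FR2 and 98.7% and 98.3% in CDR2 with IMGT borders. In CDR2 both genotypes lay above the 76.4% of all possible changes, and in FR1 (71.7%) and FR2 (79.1%) both lay below it. Replacement changes over both CDRs had 12.1 and 13.5 mutations per 1000 possible changes (exact permutation p = 0.587, n = 7 and 8). The base pattern was also looked at in silent mutations alone, which leave the protein unchanged. They stand in the same sequences as replacement changes, so their counts are not free of selection on those sequences. A:T sites held 22.5% ± 18.1 of the silent mutations in Exo1+/+ and 9.20% ± 5.86 in Exo1DA/DA mice (exact permutation p = 0.0559, n = 7 and 8), and 27.9% and 7.99% without the shared sequences (adjusted p = 0.0312, exact permutation test, n = 7 and 8). Among silent mutations at G:C, transitions made up 96.8% and 99.0%.

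**Figure D5:**
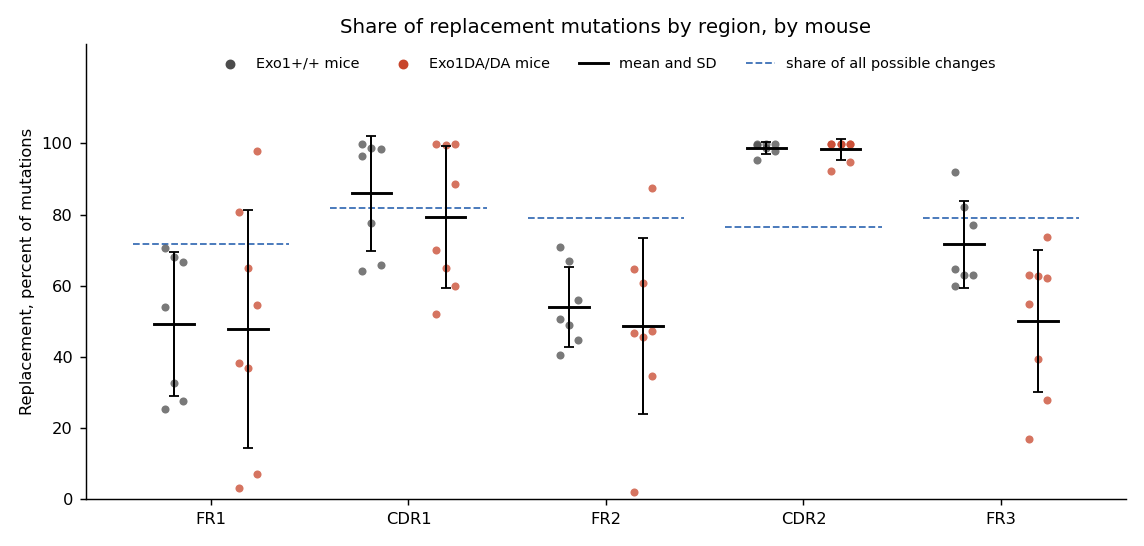
Replacement changes (with stops) as percent of the mutations of each region with IMGT borders in each mouse, with mean and SD, the dashed line being the share among all possible changes of the region. In FR3 the 7 Exo1+/+ mice have a mean of 71.7% and the 8 Exo1DA/DA mice one of 50.0%. In CDR2 both genotypes lie above the dashed line at 76.4%.

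At single positions, 60 of 768 possible changes reached 1% of the clones in at least 4 mice and were tested. Among these 60, the mean was higher in Exo1DA/DA mice for 41 and lower for 19. A change could reach the level for testing mainly through the genotype in which it was high, so this split does not describe the 768. Exactly 2 changes (3.33%), both higher, passed unadjusted p of 0.05, and none passed the adjustment. C-to-T was higher at 15 of 18 tested positions and G-to-A at 15 of 20, while A-to-G was lower at 4 of 5. Over all sites of the stretch, C-to-T was higher at 40 of 62, G-to-A at 35 of 72, and A-to-G was lower at 46 of 65. Changes at different positions often stood in the same sequences, so these counts are not independent. The changes with the largest rise and the largest fall of the mean are shown in their germline context of 11 nucleotides, 5′ to 3′, with the changed base in capitals.
G98T: ctactGgatgc
A281G: ggtctAttatt
A222G: gacaaAccctc
A241T: cctacAtgcag
G92C and G92A: caccaGctact
C180T: aagtaCaatga
G164A: taataGtggtg
G177A: actaaGtacaa
C158T: tgatcCtaata

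G98T, which exchanges tryptophan for leucine at codon 33 (W33L), had the largest fall of the mean and no difference beyond the spread between mice. It was carried by 64.8, 39.5, 1.51, 9.48, 8.43, 16.0 and 62.2% of the clones of the Exo1+/+ mice and by 28.8, 20.1, 2.0, 50.2, 4.76, 0.927, 1.78 and 3.28% of those of the Exo1DA/DA mice. Both genotypes held mice in which it was common and mice in which it was rare, and the groups overlapped. The means were 28.8% ± 26.5 and 14.0% ± 17.8 (SD, n = 7 and 8; exact permutation p = 0.217). The difference of -14.9 points was -8.88 without mouse 284, -9.31 without mouse 290 and -20.0 without mouse 299, in which case the Exo1DA/DA mean was 8.8%. G92C (S31T in CDR1) had means of 7.52% and 2.86% (exact permutation p = 0.203, n = 7 and 8). Without mouse 287 the Exo1+/+ mean was 5.10%, and without mouse 297 the Exo1DA/DA mean was 1.6%.

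The other 3 falls were at A sites and stood together in 1 recurring sequence. A281G (Y94C) and A222G (K74K), both in WA motifs, had means of 6.81% and 6.95% in Exo1+/+ and 0.506% and 1.00% in Exo1DA/DA mice, and A241T (M81L) of 6.42% and 0.501%. In mouse 286 these 3 changes stood together in 32.8% of the clones, in 646 different sequences. A sequence with the same 3 changes and 1 or 2 more was present in mice 285, 287, 288 and 289 at 0.617 to 1.70% of clones, and in Exo1DA/DA mouse 298 at 4.0%. Of the 658 sequences with all 3 changes, 652 also had A294G, which lies beyond the stretch compared. Without this sequence the share of mutations at A in mouse 286 was 21.7% in place of 39.3%, and in mouse 298 it was 1.93% in place of 4.50%. The means over mice were then 17.7% and 4.09% (exact permutation p = 0.000932, adjusted p = 0.0690, n = 7 and 8). Without mouse 286, the means of A222G were 0.886% and 1.00%, those of A281G 0.721% and 0.506% and those of A241T 0.848% and 0.501%.

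The largest rise was that of C180T, a silent change of tyrosine codon 60 in a WRC motif. It was carried by 0.00637 to 12.1% of the clones of Exo1+/+ mice (median 5.14%) and by 0.598, 22.8, 2.0, 65.7, 0, 98.1, 18.8 and 38.4% of those of the Exo1DA/DA mice. In 5 of the 8 Exo1DA/DA mice it was more frequent than in any Exo1+/+ mouse, and in 3 it was rare or listed at 0. The means were 4.74% ± 4.35 and 30.8% ± 35.3 (SD, n = 7 and 8; exact permutation p = 0.0631), and without mouse 301 the mean of the Exo1DA/DA mice was 21.2%.

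G164A (S55N in CDR2, outside the AID motifs) passed without adjustment. It was carried by 0.00541, 0.617, 0.0015, 1.70, 14.8, 15.7 and 0.797% of the clones of the Exo1+/+ mice and by 32.8, 24.6, 0, 18.7, 33.3, 0.000926, 38.9 and 37.4% of those of the Exo1DA/DA mice. The 6 Exo1DA/DA mice that carried it at over 1% were all above the highest Exo1+/+ mouse. The means were 4.81% ± 7.17 and 23.2% ± 15.8 (SD, n = 7 and 8; exact permutation p = 0.0155, adjusted p = 0.932). With the shared sequences removed they were 0.186% and 21.0% (exact permutation p = 0.0126 before adjustment, n = 7 and 8), and with each lineage counted as 1 clone 2.65% and 15.5% (exact permutation p = 0.0873, n = 7 and 8).

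G92A (S31N in CDR1, in WGCW) had means of 8.39% and 24.3% (exact permutation p = 0.116, adjusted p = 0.932, n = 7 and 8). These were 2.97% and 23.2% without the shared sequences (exact permutation p = 0.0300 before adjustment, n = 7 and 8). G177A (K59K, in GYW) had 8.86% and 22.2% (exact permutation p = 0.356, n = 7 and 8), and C158T (P53L in CDR2) 1.75% and 13.2% (exact permutation p = 0.892, n = 7 and 8). Both G177A and C158T were at 98.1% in mouse 301, in which 3.00 lineages made up all clones. Without mouse 301 C158T was at 1.75% and 1.07% and G177A at 8.86% and 11.3%. The other change that passed, C198T (S66S, in WGCW, singled out after its values were seen), had means of 1.51% ± 2.84 and 11.1% ± 12.3 (exact permutation p = 0.0471, n = 7 and 8).

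Of the most used positions of the substitution types that passed in frequency, some were carried by few mice. A199C, which led A-to-C in Exo1+/+ mice, was carried by 13.5% of the clones of mouse 284 and 18.1% of those of mouse 287, was listed at 0 in the other Exo1+/+ mice, and did not exceed 0.00349% in any Exo1DA/DA mouse. C93G, which led C-to-G in Exo1+/+ mice in the serine codon 31 of CDR1, was at 23.7% in mouse 290, 12.8% in mouse 289, 5.99% in mouse 287 and 0.926% in mouse 285, and was listed at 0 in all 8 Exo1DA/DA mice. These positions are shown because each stood in the lists of 1 genotype at a level not reached in the other.
A199C: agagcAaggcc
C93G: accagCtactg

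Other leading positions were carried by most mice. G114A reached 1% of clones in 7 Exo1+/+ and 7 Exo1DA/DA mice, G30A and C66T each in 5 and 6, A38G in 5 and 4, and C58G in 4 and 4. A38G (K13R, in WA), the leading A-to-G change of Exo1DA/DA mice, was at 5.0% ± 6.75 in Exo1+/+ and 5.55% ± 9.32 in Exo1DA/DA mice, with 22.3% in mouse 296 and 18.7% in mouse 299. C58G (L20V), the leading C-to-G change of Exo1DA/DA mice, was at 5.04% and 5.47%. Among the G-to-A changes, G30A (E10E) led in Exo1+/+ mice with 17.0% and 13.4%, and G114A (K38K) in Exo1DA/DA mice with 15.6% and 25.1%, with 96.3% in mouse 301. C66T (C22C), in WGCW, led C-to-T in Exo1+/+ mice with 8.92% and 16.8%. By contrast, A160C (in CDR2) led A-to-C in Exo1DA/DA mice because of mouse 299 alone (9.47%), and A91T led A-to-T because of mouse 300 (16.3%).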

How the data were processed

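Per the labels and the paper's methods, the authors amplified VH186.2 from spleen cDNA, sequenced it in paired ends on a MiSeq, merged reads that shared a molecular identifier, grouped sequences into clones by CDR3 and picked a random sequence of each clone 1000 times. Program versions are not given in the sources used here. The deposited lists hold 1 line per mutation with its nucleotide position (19 to 294), bases, motif, iteration and dataset number, and are neither read counts nor normalized values. Read depth is unknown, and unmutated clones have no line.

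Here a sequence was weighted by its iterations divided by 1000, and nucleotides 30 to 285 were used. Frequencies of substitution types are per 1000 sites of the germline base. Those of motifs and of replacement and silent changes are per 1000 possible changes, so the 2 scales cannot be compared directly. Sequences of a mouse were joined into a lineage if they carried 4 or more mutations and their Jaccard index reached 0.7. Between mice, sequences were taken as shared from 6 mutations on, at the same index. Mean differences were tested by 2-sided exact permutation tests over mice, with Benjamini-Hochberg adjustment over 74 comparisons. The positions named were the 5 largest rises and 5 largest falls among the 60 tested changes, and the leading position of each substitution type that passed. Members, lists and tests were chosen with earlier results of these data known. Of the alternatives, 2 were added after the data were seen. Simulated lists were used to check the share at A, load, sums of shares, weighting, permutation test and grouping of similar sequences. Frequencies, replacement classes and the adjustment were not checked in this way. The gene symbol came from a RefSeq table of GRCm38.p6. Python 3.11.15, NumPy 2.4.6, pandas 2.3.3, SciPy 1.17.1 and matplotlib 3.10.9 were used.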

Additional observations from a re-analysis of the deposited data

Results flagged for a closer look

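In 148 groups of 7 or 8 mice, 18 held a mouse whose distance to its nearest neighbour was large against the range of the group. Frequencies and shares of the same mutations counted as separate groups and values were often skewed. The 18 can therefore not be set against a rate expected by chance. Mouse 301 gave a T-to-C frequency of 5.11 per 1000 T sites, 19.2% of its mutations at T, a TW frequency of 5.55 per 1000 possible changes, a TW share of 6.94% and a replacement share of 15.3% over all frameworks. Mouse 303 gave 2.0 C-to-A per 1000 C sites and a C-to-A share of 1.99%, 1.31 T-to-A per 1000 T sites, and 3.53 silent CDR2 mutations per 1000 possible changes. Mouse 286 gave 1.51 C-to-A per 1000 C sites and a share of 2.17%. Mouse 287 gave 10.5 replacement mutations per 1000 possible changes in FR3 and 8.37 over all frameworks. Mouse 284 had G as the mutated base in 91.9% of its G:C mutations and 85.8% transitions among its silent G:C mutations, a value that was 94.5% in mouse 297. Mouse 290 had a replacement share of 95.3% in CDR2, and mouse 299 an A-to-C share of 2.11%. No cause was tested.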

How the results depend on the processing

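No paired analysis was possible because dataset numbers carry no replicate number shared between genotypes. Counts are comparisons at unadjusted p below 0.05 unless stated. Substitution frequencies (6) gave 3 with each sequence counted 1 time, 3 with each lineage counted 1 time, 3 with a rank-sum statistic, 10 with a chi-squared test on pooled mutations, and 2 to 7 with 1 mouse left out. Substitution shares (6) gave 2 with each sequence and 2 with distinct changes counted 1 time. Base shares and load (1) gave 3 without shared sequences and 1 to 2 with 1 mouse left out. Transition and strand shares (4) gave 0 with each sequence, 2 with each lineage, 1 with distinct changes, and 2 to 4 with 1 mouse left out. Hotspot frequencies (2) gave 1 with each sequence, 0 with each lineage, 4 without shared sequences, 0 without mice of few clones, 1 without the recurring sequence, 7 with the chi-squared test, and 0 to 2 with 1 mouse left out. Hotspot shares (2) gave 1 with all nucleotides, each sequence, no mice of few clones, distinct changes, distinct changes in most iterations, and no recurring sequence. Replacement shares (1) gave 0 with each sequence, 2 with each lineage, 2 without shared sequences, 0 with distinct changes, 2 with distinct changes in most iterations, and 0 to 2 with 1 mouse left out. Replacement and silent frequencies (2) gave 1 with all nucleotides, 0 with each sequence, 1 with each lineage, 1 without mice of few clones, 1 with rank-sum, and 0 to 2 with 1 mouse left out. Silent mutations (0) gave 1 with all nucleotides, each lineage, shared sequences kept in 1 mouse or removed, no mice of few clones, and distinct changes, and 0 to 1 with 1 mouse left out. Position changes (2) gave 4 with all nucleotides, 0 with each sequence, 4 with each lineage, 0 without mice of few clones, 4 with rank-sum, 1 without the recurring sequence, and 1 to 4 with 1 mouse left out. After adjustment (1) there were 2 with all nucleotides, 0 with each sequence or lineage, 17 with shared sequences kept in 1 mouse, 22 without them, 0 without mice of few clones, with rank-sum or without the recurring sequence, and 0 to 3 with 1 mouse left out. With distinct changes counted 1 time, however rare, 7 differences turned over, A-to-T share to 0.951 points, C-to-T share to -0.343, G-to-A share to -0.647, and transitions at C to -8.60, at G to -3.41, at G:C in AID motifs to -3.20 and outside them to -6.67, and the A share differed by -1.39 (exact permutation p = 0.0932, n = 7 and 8). With distinct changes in most iterations, an alternative chosen after seeing the data like the one without the recurring sequence, which was run on shares and not on frequencies, 9 of the comparisons that passed stayed below p of 0.05, 5 no longer passed and none turned over. The number of clones, 21.0 in mouse 300 and 12.1 there without shared sequences, limits the precision of each mouse.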

Other observations

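Changes that gave a stop codon made up 1.1% of the pooled mutations of Exo1+/+ mice (0.0346 to 8.83% in single mice) and 0.158% in Exo1DA/DA mice (0.00539 to 0.604%), against 4.95% of all possible changes. The difference was not tested.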
